A study of Mus musculus with 10 samples.

Results

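The simple epithelial keratins are the intermediate filament proteins of single-layered epithelia, and 4 of their genes, Krt7, Krt8, Krt18 and Krt19, were followed here in mouse embryonic stem (ES) cells. They are 4 of 33 rows with a keratin symbol in a count table of 30677 Ensembl genes, and all 4 had at least 10 counts in each library. The genes were chosen by their levels in these same libraries, namely their response to MB-3, the balance of type I and type II partners and the order of the replicate letters, so these 3 measures are given as descriptions, without a test. The study treated TNGA cells for 48 hours in serum and leukemia inhibitory factor (LIF) with 100 μM MB-3, a small-molecule inhibitor of the histone acetyltransferase Kat2a, or with the vehicle dimethyl sulfoxide (DMSO), which was at 0.1% in both groups. TNGA is a single ES cell line in which a green fluorescent protein (GFP) reporter sits at an allele of Nanog, and both groups carry it. Polyadenylated RNA was sequenced from 3 samples per treatment, lettered A, B and C, and H3K9ac (acetylated lysine 9 of histone H3) was mapped with 1 deposited peak list per treatment. Total counts were 48144367, 51137896 and 46863700 in DMSO A, B and C, and 49334434, 44985772 and 42270312 in MB-3 A, B and C. Whether the triplicates came from separately grown cultures is not stated in the labels, and p-values below measure the spread between these samples.

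Keratin filaments are obligate heteropolymers in which an acidic type I chain pairs with a basic type II chain. Krt8 (type II) and Krt18 (type I) form the primary pair of simple epithelia and are the earliest keratins of the mouse embryo, where they are known from the trophectoderm and the endoderm. Krt7 is a further type II chain of ducts and trophoblast, and Krt19 is a type I chain that lacks most of the usual tail domain and can also pair with Krt8. An unpaired keratin chain is usually degraded, which is why the ratio of type II to type I transcripts is of interest. Pluripotency genes were abundant in each library, with summed levels of the 18 listed genes between 6000 and 6740 CPM (counts scaled to a common library size), led by Dppa5a with means of 1450 and 1320 CPM in DMSO and MB-3. Nanog was at 264 ± 9.14 and 251 ± 7.33 CPM and Kat2a, the target of the inhibitor, at 130 ± 7.32 and 130 ± 4.62 CPM (SD, n = 3 in DMSO and MB-3). An inhibitor of the protein need not alter this transcript, so the Kat2a level does not check the labels.

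On GRCm38, Krt7 (ENSMUSG00000023039) lies on chromosome 15 from 101411043 to 101430313 on the forward strand, Krt8 (ENSMUSG00000049382) from 101996698 to 102004482 on the reverse strand, and Krt18 (ENSMUSG00000023043) from 102028180 to 102032027 on the forward strand. Krt18 is the type I gene that sits beside the type II cluster, 23.7 kb from Krt8, and the pair is divergently oriented. Krt19 (ENSMUSG00000020911) lies apart from them in the type I cluster on chromosome 11, from 100140810 to 100148665 on the reverse strand. In the GENCODE annotation Krt7 overlaps Gm671 and Krt8 overlaps Gm36026 on the opposite strand, and whether counting used the strand is not given in the sources used here, so their counts may hold reads of both. The promoters of the chromosome 15 members are shown because Krt8 and Krt18 moved together across the libraries and because no H3K9ac peak was listed over them, as described further on. They are 300 bases each from RefSeq on GRCm38.p6, 250 before and 50 after the annotated start, printed 5′ to 3′ on the strand of the gene. Krt7 is at chr15:101412153-101412452, Krt8 at chr15:102004293-102004592 and Krt18 at chr15:102027966-102028265, and capitals mark matches to the motifs searched.
Krt7: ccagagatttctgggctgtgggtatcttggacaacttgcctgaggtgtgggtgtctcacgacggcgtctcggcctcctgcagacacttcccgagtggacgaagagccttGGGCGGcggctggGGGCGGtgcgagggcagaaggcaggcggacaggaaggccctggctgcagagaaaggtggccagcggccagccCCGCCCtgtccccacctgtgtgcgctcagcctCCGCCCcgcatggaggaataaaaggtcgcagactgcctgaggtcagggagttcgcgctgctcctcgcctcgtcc
Krt8: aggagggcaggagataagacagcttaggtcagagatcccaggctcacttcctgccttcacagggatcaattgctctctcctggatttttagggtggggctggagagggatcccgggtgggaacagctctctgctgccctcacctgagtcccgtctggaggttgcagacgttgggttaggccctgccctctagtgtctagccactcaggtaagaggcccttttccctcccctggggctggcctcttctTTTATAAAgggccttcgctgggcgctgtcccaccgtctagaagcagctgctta
Krt18: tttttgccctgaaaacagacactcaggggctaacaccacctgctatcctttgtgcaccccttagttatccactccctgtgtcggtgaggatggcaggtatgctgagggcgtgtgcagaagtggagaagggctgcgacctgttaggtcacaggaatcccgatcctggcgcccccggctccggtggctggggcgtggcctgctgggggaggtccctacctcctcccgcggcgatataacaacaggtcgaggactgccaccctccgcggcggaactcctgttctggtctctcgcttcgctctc
Both strands were searched for the TATA box (TATAAA), the GC box (GGGCGG), the CCAAT box, the AP-1 site written as TGANTCA, the TEAD site written as GGAATG and the Grainyhead-like site written as AACCNGTT. The Krt7 window held 4 GC boxes and none of the other motifs, and 35.7% of all 32851 RefSeq promoters held at least 1 GC box. The Krt8 window held TATAAA on each strand, with the matches overlapping around the annotated start at TTTATAAA, and 13.6% of promoters held this motif. None of these letters was found in the Krt18 window. The AP-1, TEAD, Grainyhead-like and CCAAT letters, present in 7.81%, 14.7%, 2.09% and 37.4% of promoters, matched in none of the 3 windows. GC content was 66.3% in Krt7, 58.0% in Krt8 and 61.3% in Krt18, against a median of 52.7% over all promoters, and the number of CpG dinucleotides was 21, 6 and 17 against a median of 7.

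Krt8, Krt18 and Krt19 had lower mean levels in MB-3, Krt19 by the largest factor, while Krt7 was barely detected in either group and differed little. For every member the range of the MB-3 libraries overlapped that of the DMSO libraries, and the spread between libraries of a treatment was wide. Among the 20027 genes that passed the filter on low counts, 7.37% had all MB-3 libraries below all DMSO libraries, and 0 of the 4 members did. All 4 members passed that filter. Since libraries were made from bulk RNA, fewer cells that express keratins and less keratin RNA per cell cannot be told apart.

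Krt8, the type II partner, was at 62.7, 35.4 and 122 CPM in DMSO A, B and C and at 27.7, 17.2 and 49.6 CPM in MB-3 A, B and C. DMSO C was highest and MB-3 B lowest, and MB-3 C lay above DMSO B. The means were 73.3 ± 44.2 and 31.5 ± 16.5 CPM (SD, n = 3), and the fitted change was -1.22 on the log2 scale (standard error 0.38), or 2.33-fold lower in MB-3. Krt8 counts of 755 to 5808 per library carry a counting error of 3.64% or less, which is small beside the spread between libraries.

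Krt18, its type I partner, was at 77.2, 41.8 and 124 CPM in DMSO A, B and C and at 38.3, 28.5 and 61.6 CPM in MB-3 A, B and C. As for Krt8, the single crossing was MB-3 C above DMSO B. The means were 81.1 ± 41.5 and 42.8 ± 17.0 CPM (SD, n = 3), and the fitted log2 change was -0.92 (standard error 0.31), or 1.90-fold lower.

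Krt19, the tail-less type I chain, was at 20.8, 10.7 and 37.1 CPM in DMSO A, B and C and at 6.19, 4.51 and 12.4 CPM in MB-3 A, B and C. MB-3 C again exceeded DMSO B, and MB-3 A and B were below each DMSO library. The means were 22.9 ± 13.3 and 7.69 ± 4.13 CPM (SD, n = 3), which the fit gave as a log2 change of -1.58 (standard error 0.38), or 2.98-fold lower. This was the 24th lowest fold change of the 20027 genes, where Krt8 ranked 67th, Krt18 162nd and Krt7 2249th from the lowest, and 132 genes (0.659%) had a log2 fold change of -1 or lower.

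Krt7, the second type II chain, gave 37, 29 and 64 counts in DMSO A, B and C and 34, 28 and 41 counts in MB-3 A, B and C, or 0.769, 0.578 and 1.34 CPM against 0.683, 0.638 and 0.956 CPM. Only DMSO C stood above the MB-3 libraries, and DMSO B was the lowest of the 6. The means were 0.896 ± 0.398 and 0.759 ± 0.172 CPM (SD, n = 3), and the fitted log2 change of -0.24 was smaller than its standard error of 0.32. Counting error alone was 12.5% to 18.9% per library. Without DMSO C the fold change turned to 0.17, and the same omission brought Krt8 to -0.64, Krt18 to -0.48 and Krt19 to -1.04. Without MB-3 C the values were -1.70, -1.28 and -2.09 for Krt8, Krt18 and Krt19, and -0.43 for Krt7. The B libraries mattered too, with -1.55, -1.24, -1.92 and -0.48 for Krt8, Krt18, Krt19 and Krt7 without DMSO B, and -0.93, -0.70, -1.31 and -0.13 without MB-3 B.

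**Figure D1:**
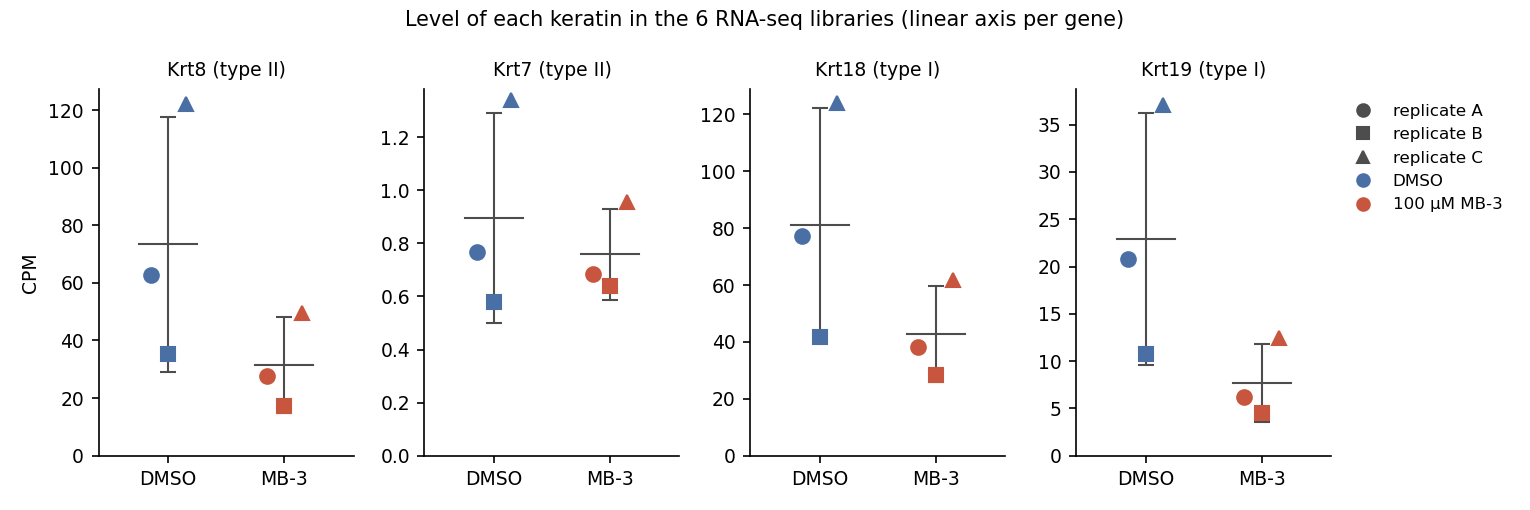
CPM (linear axis starting at 0, a separate scale per gene) of the 4 keratins in the 3 DMSO (blue) and 3 MB-3 (red) libraries, with the replicate letter as the marker shape and the group mean ± SD in grey. Replicate C is highest and replicate B lowest in each group for each gene, and the MB-3 C value lies above the DMSO B value throughout.

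The order of the letters was the same in all 4 members and in both treatments, with C highest, A next and B lowest. Of all genes tested, 6.06% had this order in both groups. In DMSO, C exceeded B by 1.78 for Krt8, 1.57 for Krt18, 1.79 for Krt19 and 1.22 for Krt7 on the log2 scale. In MB-3 the same differences were 1.53, 1.11, 1.45 and 0.58, smaller than in DMSO for each member. Over all genes tested the median of this difference was -0.01 in DMSO and 0.01 in MB-3, with 5th to 95th percentiles of -0.48 to 0.78 and -0.53 to 0.60. For Krt8, Krt18 and Krt19 the gap between letters within a treatment was larger than the fitted change between treatments, except for Krt19 within MB-3. Between libraries of the same letter, MB-3 differed from DMSO by -1.18, -1.04 and -1.30 in Krt8 (A, B and C, log2 ratio of CPM), by -1.01, -0.55 and -1.01 in Krt18, by -1.75, -1.25 and -1.58 in Krt19 and by -0.17, 0.14 and -0.49 in Krt7. MB-3 was thus lower for all 3 letters in 3 of the 4 members, as it was in 20.3% of all genes tested. The letters are names in the labels, which do not say what a letter shared, so what distinguishes C from B was not tested.

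**Figure D2:**
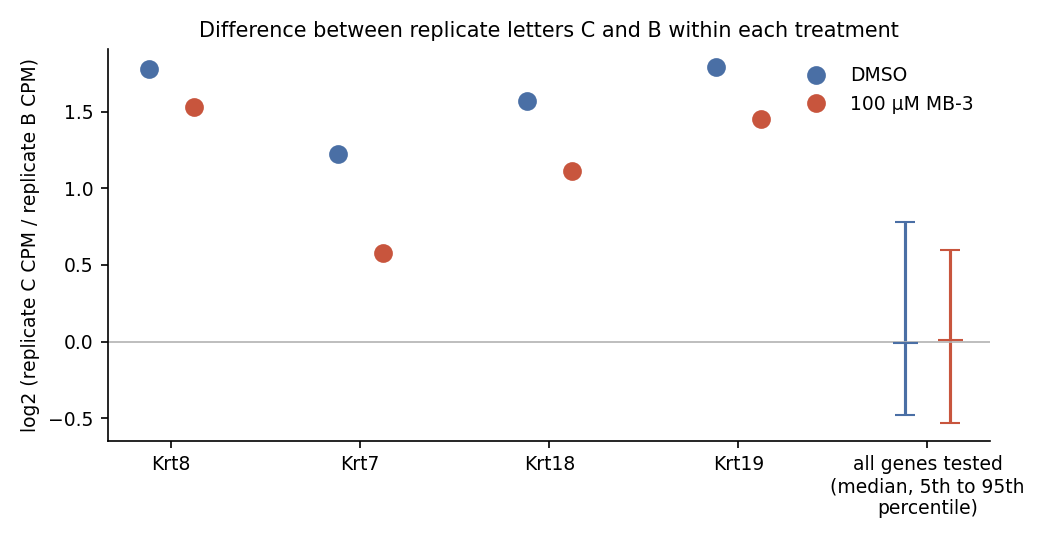
Log2 ratio of the CPM of replicate C to that of replicate B within DMSO (blue) and within MB-3 (red) for each keratin, and on the right the median and the 5th to 95th percentile over all genes tested. The points of Krt8, Krt18 and Krt19, from 1.11 to 1.79, lie above the 95th percentiles of 0.78 and 0.60, and Krt7 in MB-3 is at 0.58.

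Levels can be set between genes only per length, and CPM was therefore divided by the kilobases of annotated exon (1958, 1437, 1855 and 7049 bases for Krt8, Krt18, Krt19 and Krt7). Per kb of exon, the DMSO levels were 56.5 ± 28.9 CPM for Krt18, 37.4 ± 22.6 for Krt8, 12.3 ± 7.17 for Krt19 and 0.127 ± 0.0564 for Krt7 (SD, n = 3). In MB-3 the levels per kb were 29.8 ± 11.8, 16.1 ± 8.43, 4.14 ± 2.23 and 0.108 ± 0.0244 CPM in the same order of genes. Krt18 stood above Krt8, Krt8 above Krt19 and Krt19 above Krt7 in every library. The means of Krt18 and Krt8 differed by less than the SD of either gene in DMSO. In MB-3 they differed by more than either SD. Krt8 and Krt18 together made up 88.1% to 92.2% of the summed level per kb of the 4 genes over the 6 libraries, and Krt7 at most 0.291%, so the type II side of the balance was almost wholly Krt8.

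The ratio of type II to type I transcripts, (Krt7 + Krt8) over (Krt18 + Krt19) per kb, varied far less between libraries than the levels did. It was 0.495, 0.521 and 0.586 in DMSO A, B and C and 0.474, 0.399 and 0.514 in MB-3 A, B and C, so that counted type I transcripts were in excess in each library. This excess holds for reads as counted, since the handling of reads shared with copies of Krt8 and Krt18, described below, is not given. The groups overlapped, with MB-3 C above DMSO A. On the log2 scale DMSO had a mean of -0.91 ± 0.12 and MB-3 of -1.12 ± 0.19 (SD, n = 3). The difference was -0.21 and ran from -0.29 to -0.11 when single libraries were left out.

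Single partners were then set against each other. The Krt8 to Krt18 ratio per kb was 0.596, 0.622 and 0.718 in DMSO A, B and C and 0.530, 0.443 and 0.590 in MB-3 A, B and C. The groups came close without overlapping, DMSO A being next to MB-3 C. Krt19 relative to Krt18 was 0.209, 0.198 and 0.231 in DMSO and 0.125, 0.123 and 0.155 in MB-3. All MB-3 libraries lay below all DMSO libraries in this type I to type I ratio, with log2 means of -2.24 ± 0.11 and -2.90 ± 0.19 (SD, n = 3). The Krt8 to Krt19 ratio per kb was correspondingly 2.85, 3.13 and 3.11 in DMSO and 4.24, 3.61 and 3.80 in MB-3, again without overlap. The largest log2 difference among these pairs, 1.00, was in Krt7 over Krt8, which rests on the 28 to 64 counts of Krt7 per library. That ratio per kb was 0.00341, 0.00454 and 0.00306 in DMSO and 0.00686, 0.0103 and 0.00536 in MB-3, without overlap.

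**Figure D3:**
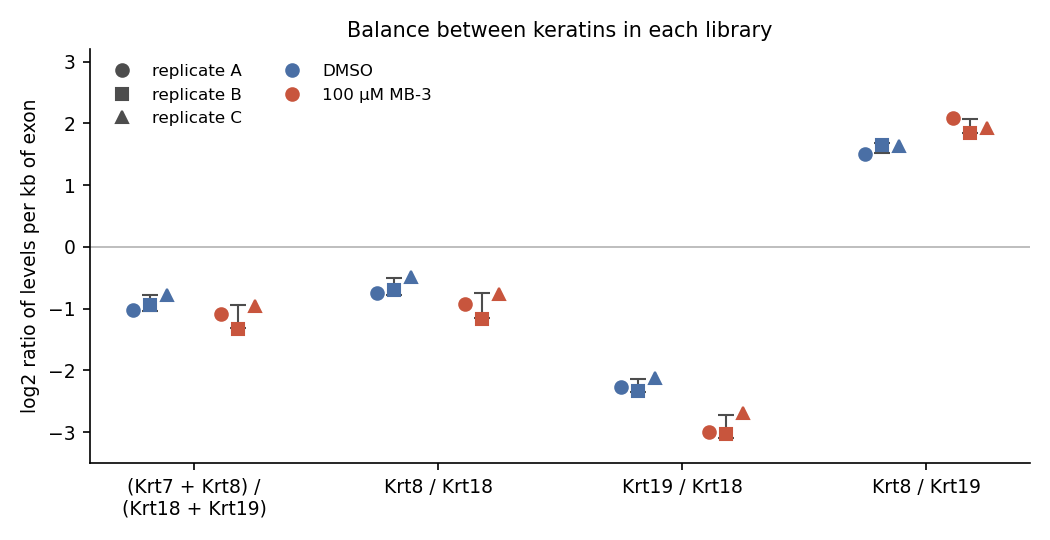
Log2 ratios of levels per kb of exon in each library for the type II to type I sum and for 3 pairs of keratins (Krt7 over Krt8 is not drawn), with DMSO in blue, MB-3 in red, the replicate letter as the marker shape and bars for SD around the mean. The ratio of all type II to all type I transcripts overlaps between treatments, while Krt19 over Krt18 is lower in all 3 MB-3 libraries (-3.03 to -2.69) than in all 3 DMSO libraries (-2.33 to -2.12).

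Krt8 has a near-identical copy elsewhere in the genome, so its counts are uncertain to that extent, and Krt18 has copies of lower identity. A processed copy of Krt8 on chromosome 7, counted as Krt8-ps, aligned to the Krt8 transcript over 1736 bases at 97.9% identity, and its counts were 10.4%, 11.4% and 11.6% of those of Krt8 in DMSO A, B and C and 11.1%, 12.1% and 11.6% in MB-3 A, B and C. That share stayed within a narrow range over libraries in which Krt8 itself ran from 755 to 5808 counts, and how reads that map to several places were handled is not given in the sources used here. A shorter Krt8 copy on chromosome 8 (592 bases, 89.4%) lies in Gm26721, which had 15 to 41 counts per library. For Krt18, a copy on chromosome 13 (1385 aligned bases, 90.5% identity) lies in no counted gene, and a copy on chromosome 1 (1130 bases, 86.5%) is counted as Gm17847, at 4.49, 3.35 and 6.63 CPM in DMSO and 2.63, 1.80 and 3.47 CPM in MB-3. No copy of Krt7 or Krt19 of at least 500 bases and 85% identity was found. With the counts of Krt8-ps added to Krt8 and those of Gm17847 to Krt18, the difference in the type II to type I balance was -0.21, as without them.

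The rest of the keratin family was at low levels, and apart from Krt8-ps its tested rows differed less between libraries. Of the 29 other keratin rows, 20 had under 10 counts in every library and 6 passed the filter on low counts. In the edgeR quasi-likelihood test, with Benjamini-Hochberg adjustment over all genes tested, which called 41 of 20027 genes (0.205%), 0 of these 6 had an adjusted p-value under 0.05. An unadjusted p-value under 0.05 was found for 1 of them, Krt8-ps (log2 fold change -1.19, standard error 0.39), which is the copy of Krt8 described above. Its counts were a nearly constant share of those of Krt8, a member chosen by this contrast. Its p-value, and its calls without DMSO B and with a block for the replicate letter, are therefore no separate test. The 1 row with an unadjusted p-value under 0.05 compares with 2182 (10.9%) of all genes tested, and DESeq2 called 0 of the 6. The median log2 fold change of the 6 was -0.10, or -0.04 without Krt8-ps, against 0.00 over all genes tested.

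Krt42, a type I keratin known from nail, was the most abundant of them at 11.5, 13.0 and 11.6 CPM in DMSO A, B and C and 12.2, 12.3 and 11.9 CPM in MB-3, with a fitted log2 change of 0.01 (standard error 0.08). Krt17, a type I keratin of skin appendages and of stressed epidermis, moved by 0.06 and Krt10, of the differentiating epidermis, by -0.16 (standard errors 0.12 and 0.15). Both were between 3.09 and 5.44 CPM in each library. Krt10 overlaps Gm11940 on the opposite strand. Krt14, the type I keratin of basal epidermis, was at 0.665, 0.837 and 0.860 CPM in DMSO and 0.422, 0.592 and 0.630 CPM in MB-3, which gave -0.53 on the log2 scale (standard error 0.27, adjusted p = 0.499 in the edgeR test). Its partner Krt5 had 0 or 1 count in each library. Krt222 was at 0.273 to 0.382 CPM with a log2 fold change of -0.04. Summed over the 28 other rows without Krt8-ps, keratin levels were 21.9, 24.5 and 23.0 CPM in DMSO A, B and C and 22.4, 23.5 and 23.2 CPM in MB-3, whereas the 4 simple epithelial keratins summed to 161, 88.5 and 285 CPM in DMSO and 72.9, 50.8 and 124 CPM in MB-3.

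**Figure D4:**
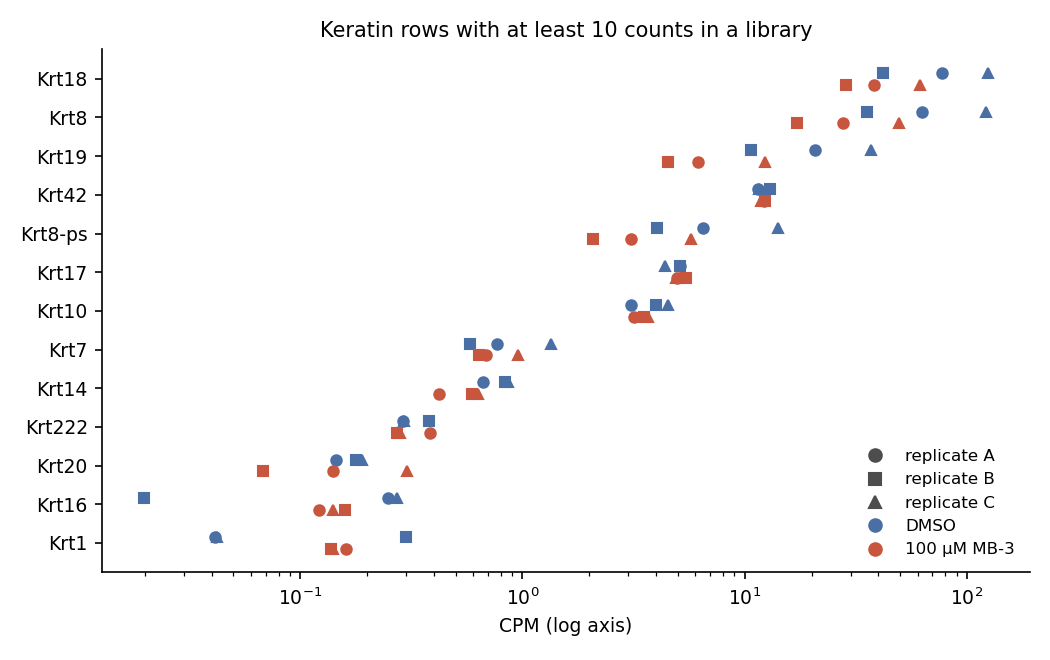
CPM on a log axis of the 13 keratin rows with at least 10 counts in a library, ordered by mean level, with DMSO in blue, MB-3 in red and the replicate letter as the marker shape. Krt18, Krt8, Krt19 and Krt8-ps spread widely with C at the right and B at the left, whereas the points of Krt42, Krt17 and Krt10 lie close together.

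The 4 members followed each other across the 6 libraries, with Pearson r of log2 CPM of 0.993 between Krt8 and Krt18, 0.987 between Krt8 and Krt19, 0.979 between Krt18 and Krt19, and 0.776 to 0.871 between Krt7 and the others. The 6 points share the treatment and the replicate letter, so these are descriptions. Among the other 12063 genes with a mean of at least 5 CPM, 413 (3.42%) had an r of 0.9 or more with Krt8, 416 (3.45%) with Krt18 and 413 (3.42%) with Krt19, and 185 (1.53%) with Krt7. The genes most like Krt8 were Tagln (r = 0.999), an actin-binding protein of smooth muscle, Sema6a (r = 0.999), a transmembrane semaphorin, Zyx (r = 0.998), a focal adhesion protein, Krt8-ps (r = 0.997) and F11r (r = 0.996), a tight junction adhesion molecule. Tagln went from 37.2, 19.3 and 79.9 CPM in DMSO A, B and C to 14.5, 9.24 and 27.7 CPM in MB-3, a log2 fold change of -1.41. F11r, by contrast, spanned only 47.0 to 51.8 CPM over the 6 libraries, so a high r says nothing about the size of a difference.

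For Krt18 the nearest genes were Cald1 (caldesmon, an actin- and tropomyosin-binding protein; r = 0.999), Nfkb2 (a subunit of the NF-kappa-B family; r = 0.999), Sema3c (a secreted semaphorin; r = 0.998), Prtg (r = 0.997) and Sema6a (r = 0.995). Cald1 fell short of the threshold like the others, with 76.6, 44.6 and 118 CPM in DMSO and 42.5, 33.4 and 61.4 CPM in MB-3 (log2 fold change -0.80, adjusted p = 0.283 in the edgeR test). For Krt19 they were Mthfd2 (a mitochondrial folate enzyme; r = 0.999), Anxa3 (a calcium-dependent membrane-binding annexin; r = 0.999), Ap1g2, Wwtr1 (the transcriptional coactivator TAZ) and Slc39a8 (a zinc and manganese transporter), the last 3 with r = 0.997. Anxa3 was at 16.5, 9.77 and 26.9 CPM in DMSO and 6.49, 5.44 and 11.0 CPM in MB-3, a log2 fold change of -1.21. Wwtr1 moved over a smaller range, from 27.5 CPM in MB-3 B to 41.0 CPM in DMSO C. Krt7 was nearest to Fam84b (r = 0.989), Pip5k1a (a lipid kinase; r = 0.986), Mmp2 (a matrix metalloprotease; r = 0.985), Rnf13 (r = 0.985) and St14 (a membrane serine protease; r = 0.983), whose log2 fold changes were between -0.20 and -0.02. None of these genes had an adjusted p-value under 0.05 in the edgeR test, and several overlap a gene on the opposite strand, Tagln, Zyx, Cald1 and Wwtr1 among them.

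Genes that work with keratin filaments were taken from lists of linkers, other filaments and epithelial genes. Of 15 tested genes for desmosomes and filament linkers, 0 were called (3 at an unadjusted p-value under 0.05, DESeq2 0), with a median log2 fold change of -0.02. The lowest were Perp and Dsc2, both desmosomal. Perp was at 20.5, 15.7 and 30.0 CPM in DMSO A, B and C and 14.4, 12.7 and 17.3 CPM in MB-3 (log2 fold change -0.58, adjusted p = 0.258, edgeR), and Dsc2 had a log2 fold change of -0.57. The highest were Evpl (0.14) and Plec (0.10), cytolinkers of the plakin family. Without DMSO B, edgeR called 3 genes of this list, Perp and Dsc2 with Dsp (desmoplakin), and it called the same 3 with a block for the replicate letter. Over all genes these settings made 520 and 1425 calls, so the rise was not particular to this list. The keratins' order of letters, C, A and B in both groups, was found in 5 of the 15 genes, Perp and Dsc2 among them, and in 6.06% of all genes tested. It was not particular to this list. Among the lists described below, 7 of 22 epithelial surface and junction genes and 9 of 28 epithelial regulators had it. So did 3 of 10 trophoblast, 6 of 18 extraembryonic endoderm and 4 of 11 fibroblast genes. Lower shares were found in other intermediate filaments (3 of 15), other keratins (1 of 6) and pluripotency genes (1 of 18).

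Of 15 tested genes for other intermediate filaments, 2 were lower and 0 higher, where 0.205% of all genes were called, with 5 at an unadjusted p-value under 0.05, 2 called by DESeq2 and a median of 0.01. Neither call was made by edgeR without MB-3 A or without MB-3 B, and Lmna was not called without DMSO A or without DMSO C. Vim, the mesenchymal filament vimentin, fell from 119, 115 and 153 CPM to 71.9, 73.5 and 76.9 CPM, which is -0.80 on the log2 scale (standard error 0.09, edgeR adjusted p = 0.0135). Lmna, which encodes the A-type nuclear lamins, fell from 22.7, 23.1 and 24.5 CPM to 16.8, 15.7 and 18.1 CPM, or -0.48 on the log2 scale (standard error 0.08, edgeR adjusted p = 0.0311). In both genes all MB-3 libraries were below all DMSO libraries, whereas Krt8, Krt18 and Krt19 had larger log2 changes than Vim and Lmna but overlapping groups. Whether these genes differ from the keratins in response was not tested. Nes (nestin) was at 40.0, 29.2 and 62.2 CPM in DMSO and 24.7, 20.8 and 34.5 CPM in MB-3 with the keratins' order of letters (log2 fold change -0.71, adjusted p = 0.250, edgeR). The highest values were 0.58 in Bfsp1, a lens filament gene under 1 CPM in each library, and 0.26 in Ina (internexin).

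Of 22 tested genes for epithelial surface and junctions, 0 were called (6 at an unadjusted p-value under 0.05, DESeq2 1, Esrp1), with a median of -0.07. Cdh1 (E-cadherin), the most abundant, had means of 379 and 390 CPM in DMSO and MB-3. Marveld2 (tricellulin), among the lower values, was at 4.99, 3.81 and 6.33 CPM in DMSO and 2.79, 3.14 and 4.71 CPM in MB-3 (log2 fold change -0.51). The highest were Esrp1 (0.27) and Esrp2 (0.21), epithelial splicing regulators. In the 28 tested genes for epithelial regulators 0 were called (10 at an unadjusted p-value under 0.05, DESeq2 0), with a median of -0.01. Of all genes tested, 10.9% had an unadjusted p-value under 0.05. For the regulators edgeR made 5 calls without DMSO B and 7 with a block for the replicate letter, Jun and Fosl2 among them in both. Calls over all genes rose as well, to 520 and 1425 under these settings. Fosl2 (-0.91) and Jun (-0.65), both of the AP-1 family, were lowest. Fosl1 (0.38), also of AP-1 but at only 37 to 57 counts per library, and Tfap2a (0.38) were highest. Of the other AP-1 genes tested, Fos (-0.64), Fosb (-0.18) and Junb (-0.17) were below 0 and Jund (0.06) was above it. Tead1 (0.02) was the most abundant regulator. Fosl2 was at 3.61, 2.13 and 6.31 CPM in DMSO and 2.15, 1.66 and 2.59 CPM in MB-3.

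Marker lists of other cell types, namely trophoblast, extraembryonic endoderm and fibroblasts, were at low or mixed levels, with medians below 0 in MB-3. Of all genes tested, 50.3% had a log2 fold change below 0. Of 10 tested trophoblast genes 8 had a log2 fold change below 0 (median -0.23, 0 called by edgeR, 3 at an unadjusted p-value under 0.05, DESeq2 0). Their summed level was 119, 107 and 116 CPM in DMSO A, B and C and 119, 114 and 120 CPM in MB-3, most of it Tfap2c (63.4 and 71.2 CPM), a gene that ES cells also express. Eomes (-0.69) and Hand1 (-0.85) were lowest and Tfap2c (0.17) and Plet1 (0.03) highest, while Elf5, Plac1 and Gcm1 were under 10 counts in every library. Of 18 tested genes for extraembryonic endoderm, 15 were below 0 (median -0.18, 0 called, 3 at an unadjusted p-value under 0.05, DESeq2 0). They summed to 1590, 1550 and 1580 CPM in DMSO and 1450, 1480 and 1530 CPM in MB-3, led by Apoe (916 and 842 CPM), and the defining gene Sox17 was under 10 counts throughout. Col4a2 (-0.56) and Amn (-0.54) were lowest and Srgn (0.10) and Lamc1 (0.09) highest.

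Of 11 tested fibroblast genes, all 11 were below 0 (median -0.30), with 0 called by edgeR, 5 at an unadjusted p-value under 0.05 and 1 called by DESeq2 (Col1a2). Their sum of 1690, 1200 and 1490 CPM in DMSO and 1540, 1370 and 1420 CPM in MB-3 was nearly all Fn1 (fibronectin; 1430 CPM in both), with a log2 fold change of -0.01. The collagen genes Col1a1 (-1.32) and Col1a2 (-1.27) were lowest, at 1.14, 0.758 and 1.24 CPM and 2.16, 1.24 and 2.20 CPM in DMSO against 0.422, 0.250 and 0.583 CPM and 0.723, 0.524 and 1.07 CPM in MB-3. Fn1 and Dcn (-0.05) were highest, and Postn, Lum, S100a4 and Fap were under 10 counts in every library. The part of any of these cell types in the keratin levels was not tested. Among 18 pluripotency genes edgeR called 1 lower and 0 higher, where 0.205% of all genes were called. An unadjusted p-value under 0.05 was found for 5 of the 18, against 10.9% of all genes tested, and DESeq2 called 1. The gene called by both was Tbx3, with a log2 fold change of -0.40 (standard error 0.06, edgeR adjusted p = 0.0243). Its levels were 70.3, 66.3 and 66.2 CPM in DMSO and 52.7, 49.2 and 51.7 CPM in MB-3. Tbx3 overlaps Tbx3os1 on the opposite strand, and the list median was 0.02. Tfcp2l1 (-0.17) followed, and Utf1 (0.27) and Sall4 (0.18) were highest. The 3 calls over all lists, Vim, Lmna and Tbx3, fell to 0 without MB-3 A or without MB-3 B, where edgeR called 0 of all genes and had 32 and 31 list genes at an unadjusted p-value under 0.05, and to 1 without DMSO A or without DMSO C. Without DMSO B they rose to 24, Nes, Jun, Fosl2, Eomes, Col4a2, Col1a1 and Col1a2 among them. With a block for the replicate letter they rose to 34, which included these genes again. Under these settings edgeR called 520 and 1425 of all genes.

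**Figure D5:**
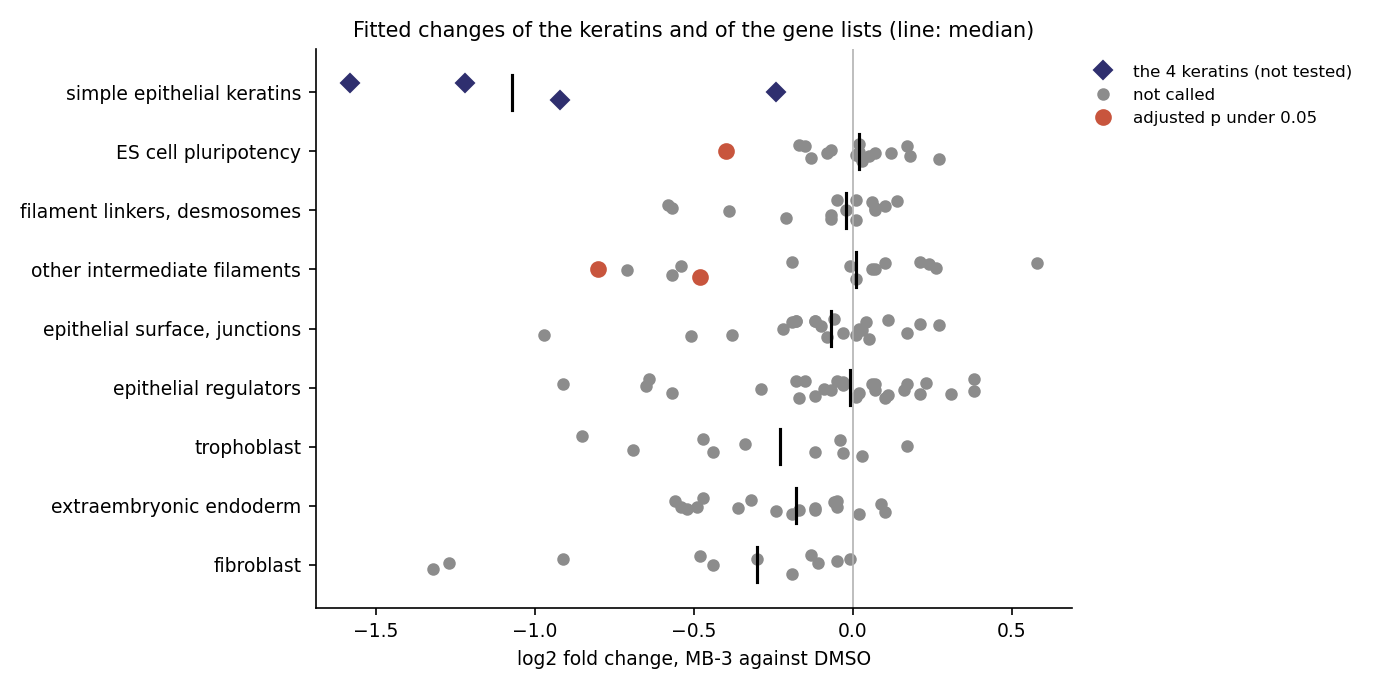
Fitted log2 fold changes (MB-3 against DMSO, x axis) of the 4 keratins (diamonds) and of every tested gene in 8 lists (circles), with a line at each median and red circles for an adjusted p-value under 0.05 in edgeR. The list medians lie between -0.30 and 0.02, and only Tbx3, Vim and Lmna are red.

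H3K9ac marks active promoters, and its deposited peaks, which are positions on mm9 without heights or read depth, were looked up over the keratin genes. The peaks that the study's own annotation assigns to neighbouring genes were used as bounds, since positions were kept on mm9. The type II cluster with Krt7, Krt8 and Krt18 lies on chromosome 15 between a peak assigned to Atg101 and a peak assigned to Eif4b, and the type I cluster with Krt19 lies on chromosome 11 between a peak assigned to Krt10 and a peak assigned to Eif1. Gene order came from GENCODE on GRCm38, where Atg101 and Eif4b start 790 kb apart. The end of Krt10, a gene of the reverse strand, and the start of Eif1 are 935 kb apart. These distances are close to the 789 kb and 932 kb between the peaks on mm9.

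Between the Krt10 and Eif1 peaks, chr11:99248131-100180594 on mm9, neither the DMSO nor the MB-3 list held a peak. The peak assigned to Krt10 (99246645 to 99248131, 1487 bp) was in the DMSO list only. Between the Atg101 and Eif4b peaks, chr15:101115017-101904361, the MB-3 list held 0 peaks and the DMSO list 1, a peak of 613 bp from 101903375 to 101903987 that ends 373 bp before the MB-3 peak at Eif4b. On GRCm38 Eif4b starts 41.7 kb beyond the end of Krt18. No peak was therefore listed near Krt7, Krt8, Krt18 or Krt19 in either treatment. The RNA-seq libraries were separate samples, so their keratin levels cannot be set against the peak lists library by library. Such stretches were not rare, as 6.72% of the gaps between neighbouring DMSO peaks were at least as long as the chromosome 15 gap of 788 kb and 5.72% as long as the chromosome 11 gap of 932 kb, with a median gap of 26992 bp. In the MB-3 list 16.4% and 13.0% of gaps reached the length of its gaps there, 789 and 1090 kb. Each list came from merged duplicates, so there was no spread to test against, and a signal below the limit of the peak caller was not analysed here.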

How the data were processed

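For RNA-seq, the authors used Bowtie on mm10 for alignment and GenomicAlignments for counting at exons, and what they deposited are unnormalized counts, 1 row per Ensembl gene. For ChIP-seq, the authors aligned reads to mm9 with BWA, merged duplicates, called peaks with MACS2 and deposited positions only. Versions are not given in the sources used here. Identifiers were paired with symbols in GENCODE M21 (30540 of 30677), and 3 of 4 members with RefSeq promoters. Groups and letters came from the sample labels. All sample columns of the count table were used.

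Genes were kept by filterByExpr (20027) and compared with edgeR 4.0.16 (R 4.3.3; TMM factors, glmQLFit and glmQLFTest, treatment as the only term, Benjamini-Hochberg adjustment over all genes tested, threshold 0.05), after a test on simulated data. CPM was scaled by the normalized library size, so that 1 CPM is 42.9 to 50.2 reads. Counting errors cover sampling of reads only. Pearson r used log2 CPM with a prior count of 2. Copies of the keratin transcripts were searched with BLAST 2.17.0. Alternatives were RLE and upper quartile scaling, no filter on low counts, DESeq2 1.42.0 without its prior, a block for the replicate letter, omission of each library in turn, other forms of the balance, and peaks of at least 500 bp or merged within 1000 bp. The addition of the copies' counts was chosen after seeing the data. Positions in peak files were raised by 1 at the start.

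The members and the gene lists were chosen with earlier results of these data known. Named genes were the members, each other keratin that passed the filter, the 5 genes most like each member, and in each list the genes called, the 2 lowest and 2 highest fold changes and the most abundant marker, with 1 result under this rule not reported here; Krt5, Sox17, Dsp and the letter order of Perp and Dsc2 were singled out after their values were seen. The smallest p-value of an exact permutation test with 3 libraries per group is 0.1.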

Additional observations from a re-analysis of the deposited data

How the results depend on the processing

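The log2 fold changes of Krt8, Krt18 and Krt19 kept their sign under all 11 alternatives tried, and the other scalings and DESeq2 moved none of the 4 by more than 0.01. The standard errors were larger in DESeq2, at 0.67, 0.54, 0.66 and 0.38 for Krt8, Krt18, Krt19 and Krt7. Leaving out single libraries gave -1.70 to -0.64 for Krt8, -1.28 to -0.48 for Krt18, -2.09 to -1.04 for Krt19 and -0.48 to 0.17 for Krt7, which turned positive (0.17) without DMSO C. The type II to type I difference stayed between -0.29 and -0.11 over the libraries left out. The number of genes called, 41, became 25 with upper quartile factors, 183 with DESeq2, 194 with no filter on low counts and 1425 with the replicate block, and 0 to 520 with single libraries left out, with 520 without DMSO B and 0 without MB-3 A or MB-3 B, where the unadjusted p-value was under 0.05 in 1440 and 1716 genes. Calls in the gene lists, 3, became 5 with DESeq2, 6 with no filter and 34 with the replicate block, and 0 to 24 with single libraries left out. DESeq2 gave no adjusted p-value for 11 of the 140 tested genes in the lists. The cause of these changes was not tested.

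The letters were checked as pairs by correlating the deviations of same-lettered libraries from their group means, which gave 0.0982 for A, 0.261 for B and 0.213 for C. As the value for A is just below 0.1, the limit used here, the letters were not taken as pairs. Each library nevertheless correlated best with its own letter, and values between different letters ran from -0.21 to -0.0174. Deviations within a group cancel out, so these values are not independent. They are a hint of pairing from the data and not from the design, and the main fit leaves such a pairing out. With the replicate block, the log2 changes of Krt8, Krt18, Krt19 and Krt7 were -1.18, -0.87, -1.55 and -0.21, with standard errors of 0.06, 0.06, 0.08 and 0.26 against 0.38, 0.31, 0.38 and 0.32 without it. The single H3K9ac peak listed between the bounds became 0 when peaks within 1000 bp were merged. Depth limits Krt7, with 28 to 64 counts per library, and the 20 keratins under 10 counts.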
